A study of Mus musculus with 20 samples.

Results

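The genes described here are 8 transcripts of the interferon gamma programme that governs the entry and restraint of T cells in tumours, out of 46983 genes in the count table. They were taken by name: the chemokines Cxcl9, Cxcl10 and Cxcl11, their receptor Cxcr3, the transcription factor Irf1, the signalling inhibitor Socs1, and the enzymes Ido1 and Nos2. All 8 were found in the table and all 8 passed the filter on low counts in each comparison. Pancreatic tumours were grown orthotopically in C57BL/6 mice from KPC murine pancreatic cancer cell lines and taken at 2 weeks, from hosts that were IL33-/- or wild type and had received no treatment. RNA was sequenced from CD45+ leukocytes selected on magnetic beads and from bulk tumour, which gave sorted IL33KO, sorted WT, bulk IL33KO and bulk WT libraries, 5 of each. The host alone carries the IL33-/- genotype, and the labels do not say which KPC line or clone was injected, how Il33 was disrupted, or which libraries came from the same mouse.

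Interferon gamma, made mainly by activated T cells and natural killer cells, binds a receptor that signals through the kinases JAK1 and JAK2. Promoters of its target genes carry GAS elements, as that of Irf1 does, or the related ISRE elements, which the IRF1 protein binds. CXCL9, CXCL10 and CXCL11 are secreted by macrophages, dendritic cells, stroma and tumour cells exposed to interferon gamma, and draw in activated T cells and natural killer cells that carry CXCR3. SOCS1 is induced by the same signal and blocks the JAK kinases, IDO1 degrades tryptophan and so restrains T cells, and NOS2 makes nitric oxide in activated myeloid cells.

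The libraries held 51.3 to 81.0 M (mega) counts in genes, so that every member had at least 59 counts in every library. Summed over 10 pan-leukocyte genes, the sorted libraries reached 8717 to 11072 CPM (counts relative to a library size scaled by the TMM method) in IL33KO and 8511 to 11719 CPM in WT, against 781 to 1578 CPM in bulk IL33KO and 671 to 1535 CPM in bulk WT. Tumour epithelial genes were not absent from the sorted libraries, at 1050 to 2802 CPM in sum, against 6598 to 9517 CPM in bulk tumour. Acinar genes had higher medians in sorted libraries, at 2540 CPM in sorted IL33KO and 2711 CPM in sorted WT. The medians were 32.6 CPM in bulk IL33KO and 40.6 CPM in bulk WT. Within their groups, sorted IL33KO 3 (40374 CPM) and bulk WT 5 (8693 CPM) stood apart. Bulk IL33KO 3 (1619 CPM) also stood above the rest of its group (24.4 to 157 CPM). The count of Il33 did not separate the genotypes (14.2 to 25.3 CPM in sorted IL33KO and 5.71 to 20.7 CPM in sorted WT, 38.0 to 56.2 CPM in bulk IL33KO and 54.0 to 66.9 CPM in bulk WT), so IL33KO means the libraries labelled so throughout.

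The ligand genes lie side by side on chromosome 5 of mm10, all on the minus strand: Cxcl9 at chr5:92321347-92328079, Cxcl10 at chr5:92346638-92348889 and Cxcl11 at chr5:92359544-92365485. GENCODE M21 annotates Cxcl11 as a polymorphic pseudogene, and C57BL/6 mice are known to carry a frameshift that leaves them without functional CXCL11 protein. The other members are Cxcr3 (chrX:101731535-101734269, minus strand), Irf1 (chr11:53770014-53778374, plus), Socs1 (chr16:10782240-10785536, minus), Ido1 (chr8:24584136-24597009, minus) and Nos2 (chr11:78920787-78960254, plus). Cxcl10 shares 133 exon bases with Art3, Cxcl11 shares 1582 with Gm2673 and Irf1 shares 135 with Gm17334, each on the opposite strand. The strand setting of the counting is not known, so reads in these overlaps cannot be told apart. The partners held 20 to 257 counts for Art3, 0 to 2 for Gm2673 and 2 to 77 for Gm17334. These counts do not show how many reads in the overlaps were given to neither gene. For Cxcl11 the overlap covers 1582 of 3794 exon bases, so its level per exon length may be understated.

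RefSeq promoter windows of 300 bases, from 250 before to 50 after the start in GRCm38.p6, were at hand for 5 of the 8 members. They were searched on both strands for a GAS element, TTCNNNGAA, and for an ISRE core, GAAANNGAA. The 4 windows that held a match are printed because they show elements known from genes that interferon gamma induces, with the match in capitals.
Cxcl9, chr5:92328030-92328329, minus strand: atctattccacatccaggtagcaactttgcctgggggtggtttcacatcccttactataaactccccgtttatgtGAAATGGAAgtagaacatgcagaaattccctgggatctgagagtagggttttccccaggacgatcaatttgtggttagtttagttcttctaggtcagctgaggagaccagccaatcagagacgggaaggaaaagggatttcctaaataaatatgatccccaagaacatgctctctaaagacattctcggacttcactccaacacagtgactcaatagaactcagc
Cxcl10, chr5:92348840-92349139, minus strand: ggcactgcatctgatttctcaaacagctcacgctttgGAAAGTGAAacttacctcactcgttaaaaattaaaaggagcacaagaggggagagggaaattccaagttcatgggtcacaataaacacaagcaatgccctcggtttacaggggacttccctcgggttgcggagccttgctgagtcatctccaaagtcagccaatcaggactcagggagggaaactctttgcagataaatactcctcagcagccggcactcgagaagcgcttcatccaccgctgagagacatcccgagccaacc
Irf1, chr11:53769764-53770063, plus strand: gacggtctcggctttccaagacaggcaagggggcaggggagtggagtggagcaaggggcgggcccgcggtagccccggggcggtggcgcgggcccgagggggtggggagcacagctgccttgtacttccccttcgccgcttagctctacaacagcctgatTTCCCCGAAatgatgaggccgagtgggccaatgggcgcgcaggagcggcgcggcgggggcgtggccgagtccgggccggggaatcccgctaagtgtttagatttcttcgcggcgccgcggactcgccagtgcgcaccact
Socs1, chr16:10785487-10785786, minus strand: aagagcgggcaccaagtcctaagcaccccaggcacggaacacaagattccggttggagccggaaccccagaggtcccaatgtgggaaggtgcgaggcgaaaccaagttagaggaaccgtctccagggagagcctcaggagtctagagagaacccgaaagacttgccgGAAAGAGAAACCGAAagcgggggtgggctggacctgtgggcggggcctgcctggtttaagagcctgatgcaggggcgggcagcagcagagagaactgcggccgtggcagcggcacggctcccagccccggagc
The ISRE core stood 175 bases before the start in Cxcl9 and 213 before it in Cxcl10, and at 83 and 77 bases before it in Socs1, where the pair overlap each other. The GAS element of Irf1 stood 90 bases before the start. The other Irf1 window and that of Cxcr3 held neither set of letters. Over all 32851 windows, 8.30% held the GAS element, 8.56% the ISRE core and 15.8% either, so a match is common and is a description only.

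Cxcl9 was the most abundant member per exon length in all 4 groups, and its level overlapped between genotypes in both compartments. In sorted leukocytes it had 375, 642, 476, 733 and 873 CPM in IL33KO, against 578, 572, 848, 627 and 823 CPM in WT. In bulk tumour it had 579, 492, 143, 517 and 419 CPM in IL33KO, against 333, 379, 494, 309 and 530 CPM in WT. Sorted IL33KO 1 and 3 were low among sorted libraries, and bulk IL33KO 3 was the lowest of all. The log2 fold change of IL33KO over WT was −0.14 (95% interval −0.62 to 0.34) in sorted leukocytes and 0.04 (−0.63 to 0.70) in bulk tumour, and neither passed edgeR's quasi-likelihood test (adjusted p = 0.836 and 0.972).

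Cxcl10 leaned the opposite way in the 2 compartments without passing in either. Sorted leukocytes had 84.6, 139, 118, 180 and 186 CPM in IL33KO, against 164, 123, 220, 172 and 261 CPM in WT. Bulk tumour had 118, 147, 75.3, 131 and 141 CPM in IL33KO, against 54.4, 48.2, 114, 54.3 and 204 CPM in WT. Bulk WT 1, 2 and 4 lay below every bulk IL33KO library, while bulk WT 5 lay above them all. The log2 fold change was −0.39 (−0.93 to 0.14, adjusted p = 0.525 in edgeR) in sorted leukocytes and 0.34 (−0.52 to 1.19, adjusted p = 0.782) in bulk tumour.

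Cxcl11 was scarce, with the lowest level per exon length of all members in sorted leukocytes. It had 3.83, 5.47, 3.90, 8.65 and 8.12 CPM in sorted IL33KO, against 5.15, 4.32, 6.59, 7.45 and 11.1 CPM in sorted WT. In bulk tumour it had 15.7, 13.5, 6.27, 16.7 and 13.9 CPM in IL33KO, against 11.6, 12.6, 13.7, 10.2 and 14.3 CPM in WT. Bulk values thus lay above the sorted ones save in bulk IL33KO 3 and, among WT libraries, for sorted WT 5, which exceeded bulk WT 4. By genotype the log2 fold change was −0.19 for sorted cells and 0.05 for bulk tumour (adjusted p = 0.836 and 0.941 in edgeR).

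The ratios of Cxcl9 and Cxcl10 to Cxcl11 were higher in sorted leukocytes than in bulk tumour. Per exon length, the median ratio of Cxcl9 to Cxcl10 was 3.31 in sorted IL33KO and 2.71 in sorted WT, and 2.50 in bulk IL33KO and 4.24 in bulk WT, with overlapping ranges in each pair. The ratio of Cxcl9 to Cxcl11 ranged from 107 to 153 in sorted IL33KO, against 28.6 to 46.5 in bulk IL33KO, and from 93.3 to 167 in sorted WT, against 36.1 to 46.6 in bulk WT. Sorted and bulk libraries did not overlap in this ratio in hosts of either genotype. The ratio of Cxcl10 to Cxcl11 was likewise higher in sorted leukocytes, at 35.0 to 50.9 in sorted IL33KO against 12.6 to 20.3 in bulk IL33KO, and at 39.0 to 56.2 in sorted WT against 6.44 to 24.1 in bulk WT. Reads of Cxcl11 left uncounted in its overlap with Gm2673 would raise the ratios to Cxcl11. These ratios are given as a description, without a test.

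Cxcr3, the receptor of activated T cells and natural killer cells, was mainly a transcript of the sorted fraction. It had 27.2, 26.0, 18.0, 29.9 and 26.4 CPM in sorted IL33KO, against 37.5, 29.2, 37.4, 25.8 and 26.6 CPM in sorted WT. In bulk tumour it had 1.88, 3.49, 1.36, 3.82 and 6.87 CPM in IL33KO, against 1.07, 0.835, 4.32, 1.33 and 5.20 CPM in WT. Sorted IL33KO 3, the lowest sorted library for Cxcr3, also had the lowest sum of 11 T cell genes among sorted libraries (577 CPM, against 702 to 1513 CPM in the others). Sorted WT 4 was next in both (25.8 CPM of Cxcr3 and 702 CPM of T cell genes). Other libraries did not rank alike. Sorted WT 3 had 37.4 CPM of Cxcr3 with 992 CPM of T cell genes, and sorted WT 5 had 26.6 with 1347 CPM. The genotypes overlapped, with a log2 fold change of −0.28 (−0.61 to 0.05, adjusted p = 0.466 in edgeR) in sorted leukocytes and 0.42 (−0.87 to 1.72, adjusted p = 0.809) in bulk tumour.

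**Figure D1:**
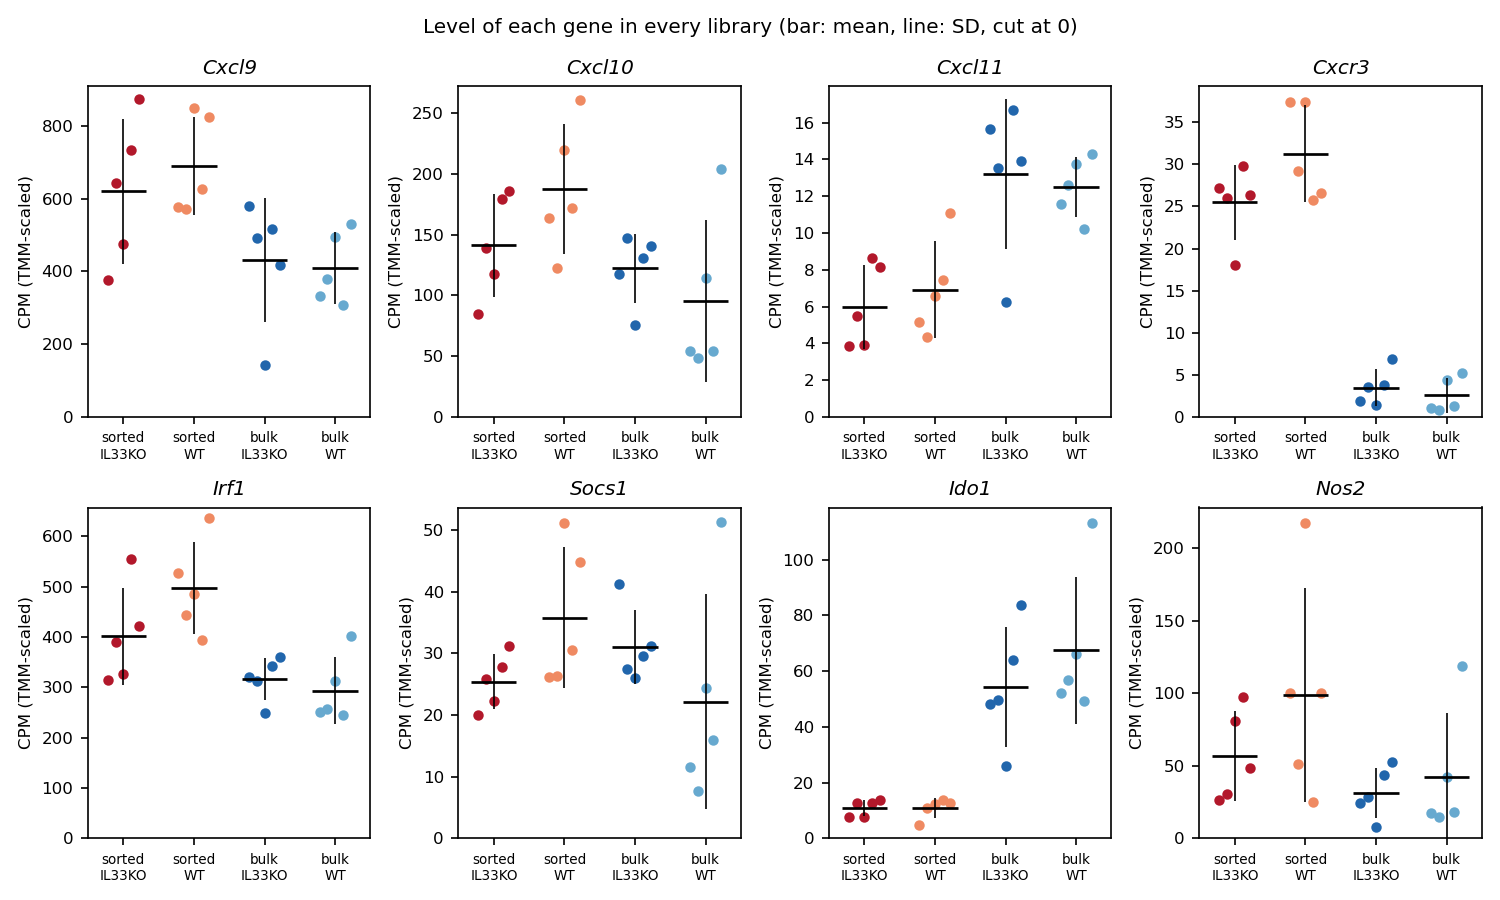
CPM (TMM-scaled, linear axis from 0) of each gene in every library of the 4 groups, with the mean as a bar and the SD as a line cut at 0 (n = 5 libraries a group). Cxcr3 sat at 18.0 to 37.5 CPM in sorted leukocytes and at 0.835 to 6.87 CPM in bulk tumour, Ido1 and most Cxcl11 values were higher in bulk tumour, and IL33KO overlapped WT in each panel.

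Irf1, the transcription factor that acts on many later targets, was abundant and even. It had 315, 390, 327, 555 and 422 CPM in sorted IL33KO, against 527, 445, 486, 393 and 637 CPM in sorted WT. In bulk tumour it had 321, 312, 250, 342 and 361 CPM in IL33KO, against 250, 257, 312, 246 and 402 CPM in WT. Each group's highest value was at most 1.76 times its lowest, and the genotypes overlapped. The log2 fold change was −0.30 (−0.68 to 0.09, adjusted p = 0.507 in edgeR) in sorted leukocytes and 0.09 (−0.24 to 0.42, adjusted p = 0.846) in bulk tumour.

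Socs1, the JAK inhibitor, came nearest to a genotype difference in sorted leukocytes. It had 19.99, 25.8, 22.3, 27.8 and 31.2 CPM in sorted IL33KO, against 26.2, 26.4, 51.1, 30.6 and 44.8 CPM in sorted WT. Sorted WT 3 and 5 lay above all IL33KO libraries and the other WT libraries lay among them. The log2 fold change was −0.48 (−0.92 to −0.04), with an unadjusted p of 0.0367 and an adjusted p of 0.359 in edgeR. In bulk tumour Socs1 had 41.2, 27.4, 26.0, 29.5 and 31.2 CPM in IL33KO, against 11.6, 7.60, 24.5, 15.9 and 51.3 CPM in WT. Here 4 WT libraries lay below every IL33KO library and bulk WT 5 lay above them, for a log2 fold change of 0.46 (−0.48 to 1.40, adjusted p = 0.751 in edgeR).

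Ido1, the tryptophan-degrading enzyme, was low in sorted leukocytes and high in bulk tumour. It had 7.71, 12.7, 7.64, 12.6 and 13.6 CPM in sorted IL33KO, against 4.70, 10.9, 12.5, 13.8 and 12.8 CPM in sorted WT. In bulk tumour it had 48.3, 49.7, 25.8, 64.1 and 83.9 CPM in IL33KO, against 52.0, 56.8, 66.2, 49.4 and 113 CPM in WT. The lowest bulk value lay above the highest sorted value, and bulk WT 5 was the highest library. The log2 fold change by genotype was 0.01 (−0.60 to 0.62, adjusted p = 0.994 in edgeR) in sorted leukocytes and −0.34 (−1.02 to 0.33, adjusted p = 0.747) in bulk tumour.

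Nos2, the inducible nitric oxide synthase, was the most variable member. It had 26.1, 30.8, 80.7, 97.1 and 48.5 CPM in sorted IL33KO, against 100, 50.9, 217, 24.9 and 100 CPM in sorted WT. In bulk tumour it had 24.5, 28.7, 7.90, 43.4 and 52.6 CPM in IL33KO, against 17.6, 14.8, 42.6, 18.4 and 118 CPM in WT. Sorted WT spread 8.71-fold between its lowest and highest library and bulk WT 8.01-fold, with sorted WT 3 and bulk WT 5 at the top. The log2 fold change of −0.77 (−2.06 to 0.51, adjusted p = 0.614 in edgeR) in sorted leukocytes and of −0.47 (−1.86 to 0.93, adjusted p = 0.806) in bulk tumour was smaller than this spread. Without bulk WT 5 the bulk value was 0.40, with the opposite sign.

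Read together by genotype, 0 of the 8 members passed in sorted leukocytes, where 0.012% of all 16731 genes tested did. There 7 of the 8 members had lower levels in IL33KO, against 7741 of 16731 genes overall. The members' median log2 fold change was −0.29 against 0.02 over all genes, and 1 member had an unadjusted p under 0.05, as did 12.9% of all genes. After centring on group means, 26 of 28 pairs of members had a positive Pearson's r in sorted leukocytes (median 0.54). All 28 did in bulk tumour (median 0.77), so the directions of the members are not independent. In bulk tumour 0 of 8 passed, as did 0% of all 17258 genes, the median of the members was 0.07 against 0.01 over all genes, and 0 members had an unadjusted p under 0.05, against 6.36% of all genes. DESeq2 called 476 genes in sorted leukocytes and 52 in bulk tumour, and 0 members in either. In no member did the genotypes separate, where 3.7% of all genes did so in sorted leukocytes and 0.672% in bulk tumour. Of 16 exact permutation tests, 2-sided, of a member's mean log2 CPM in a compartment, 0 passed (lowest adjusted p = 0.635, with 0.00794 as the floor of p for 5 libraries against 5).

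Limma voom with sample quality weights differed in bulk tumour, where it called 4 members higher in IL33KO: Cxcl10 (log2 1.09, adjusted p = 0.0118), Cxcr3 (1.33, 0.0287), Irf1 (0.30, 0.0380) and Socs1 (1.14, 0.0116). It called 3371 genes there. Its weights were 6.09 for bulk WT 1 and 0.218 for bulk WT 5, the libraries with low and high values of these genes.

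**Figure D2:**
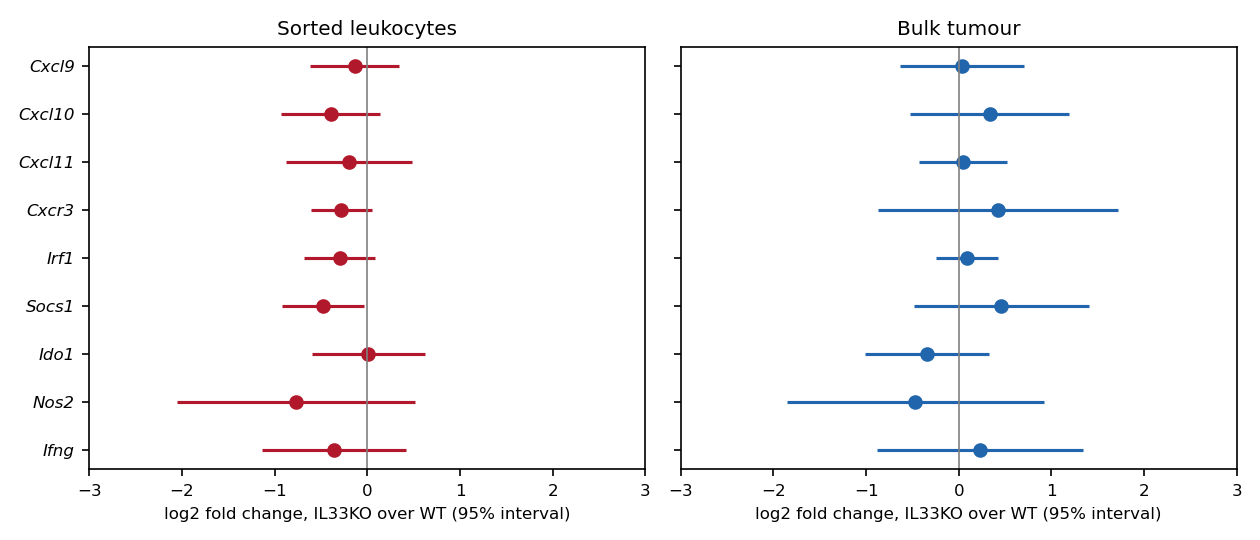
Log2 fold change of IL33KO over WT with its 95% interval from edgeR, in sorted leukocytes on the left and bulk tumour on the right (5 against 5 libraries each). In sorted leukocytes 7 of the 8 members lie below 0, against 7741 of 16731 genes overall. In bulk tumour 6 lie above it, against 8844 of 17258 genes overall. Members varied together between libraries, and none passed after adjustment.

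Macrophage genes lay lower in the sorted IL33KO libraries as well, without passing. The sum of 10 macrophage genes was 11337 to 17445 CPM in sorted IL33KO, against 18993 to 21685 CPM in sorted WT. All 10 genes had negative log2 fold changes with a median of −0.34, although 0 of 10 passed. In edgeR 5 of the 10 had an unadjusted p under 0.05, against 12.9% of all genes. The sum of T cell genes overlapped, at 577 to 1513 CPM in sorted IL33KO and 702 to 1446 CPM in sorted WT. Other lists lay the other way, also with 0 past the threshold. Values were positive for all 8 monocyte (median 0.17), all 7 B cell (0.64), 8 of 9 natural killer cell (0.17) and all 8 acinar genes (2.26). They were negative for 7 of 10 pan-leukocyte and 7 of 11 T cell genes. The part of these cell types in the members' lower levels was not tested.

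Other genes of the pathway did not pass by genotype either. Of the genes of interferon gamma and its receptor signalling (6), feedback on that signalling (8), interferon gamma induction (13), other interferon gamma targets (24), other interferon regulatory factors (8), tryptophan catabolism (7 tested in sorted leukocytes), arginine and nitric oxide metabolism (8) and ligand processing and scavenging (3), 0 passed in sorted leukocytes, where 0.012% of all genes did. Medians of these lists lay on both sides of 0, between −0.22 for arginine and nitric oxide genes and 0.16 for ligand processing and scavenging. An unadjusted p under 0.05 was found for 4 of the 8 arginine and nitric oxide genes, against 12.9% of all genes. Among those 4, Arg2, Gch1 and Asl were lower in IL33KO and Nos1 was higher. Among the genes of these lists the smallest p was that of Ebi3, a subunit of the cytokines IL-27 and IL-35, at 36.3 CPM in sorted IL33KO and 49.9 CPM in sorted WT with an adjusted p of 0.144 in edgeR. Socs3, the relative of Socs1 that restrains STAT3 signalling, averaged 730 CPM in sorted IL33KO and 913 CPM in sorted WT, with an adjusted p of 0.229 in edgeR. The genotypes did not overlap in these genes, nor in the immunoproteasome genes Psmb10 and Psmb9 and in Irf3, Gch1 and Nos1, which makes 7 of 75 genes of these lists (9.33%), against 3.7% of all genes. These 5 genes did not pass either. Psmb10, Psmb9, Irf3 and Gch1 were lower in IL33KO, as were Ebi3 and Socs3. Nos1 was higher (log2 0.61), at 1.25 CPM in sorted IL33KO and 0.824 CPM in sorted WT. In bulk tumour 0 genes of these lists passed either, with list medians between −0.18 and 0.41, and 20 of 24 other interferon gamma targets had positive values with a median of 0.14, as did 8844 of 17258 genes overall. In the same libraries all 10 pan-leukocyte, all 10 macrophage, all 11 T cell and all 8 fibroblast genes (median 0.96) had positive values, with 0 past the threshold, and their part in the values of the targets was not tested.

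The test of whether the genotype difference itself differed between compartments found 0 of 8 members (0% of 18145 genes passed, and 11.2% had an unadjusted p under 0.05). The members' interaction values, sorted minus bulk, ran from −0.96 for Socs1 to 0.32 for Ido1, with adjusted p values from 0.461 to 0.899 in edgeR. Limma voom with quality weights called 3 of them: Cxcl10 (−1.34, adjusted p = 0.0175), Cxcr3 (−1.50, 0.0122) and Socs1 (−1.43, 0.00841).

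Between compartments the members split. In IL33KO hosts Cxcr3 was 7.44-fold higher in sorted leukocytes than in bulk tumour (log2 2.90 ± 0.48 SE, adjusted p = 3.67e-05 in edgeR), while Cxcl11 was lower (log2 −1.11 ± 0.28, adjusted p = 0.00219) and Ido1 was lower by more (log2 −2.30 ± 0.33, adjusted p = 6.22e-06). In WT hosts Cxcr3 was 12.3-fold higher (3.62 ± 0.50, adjusted p = 3.07e-06), and Cxcl11 (−0.84 ± 0.28, adjusted p = 0.0132) and Ido1 (−2.62 ± 0.33, adjusted p = 1.09e-06) were again lower. Bulk Ido1 averaged 54.3 ± 21.4 CPM in IL33KO and 67.5 ± 26.4 CPM in WT (SD, n = 5 each). That made 1 member higher and 2 lower in IL33KO hosts, where 31.3% of all genes passed as higher and 31.7% as lower, and 4 higher and 2 lower in WT hosts, where 33.7% and 34.3% did (63% and 68% of genes in either direction). Sorted and bulk libraries did not overlap for 2 of the 8 members in IL33KO hosts, Cxcr3 and Ido1, and for 3 in WT hosts, with Cxcl9 added, where 48.7% and 50.4% of all genes did not.

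The 3 further members that were higher in WT hosts were Irf1 (log2 0.77 ± 0.17, adjusted p = 0.000574 in edgeR), Cxcl10 (0.99 ± 0.35, 0.0177) and Cxcl9 (0.76 ± 0.29, 0.0245). In IL33KO hosts the same genes had 0.37 (adjusted p = 0.0687), 0.24 (0.571) and 0.55 (0.0987), and the interaction above did not separate the hosts. Irf1 in WT hosts kept its call in 16 of 17 alternatives and lost it only when library size alone set the scale. The calls of Cxcl9 and Cxcl10 were fragile. Cxcl9 in WT hosts missed the threshold without sorted WT 3, sorted WT 5, bulk WT 1 or bulk WT 4 (adjusted p = 0.0553 to 0.0623), and Cxcl10 missed it without sorted WT 5 (0.0509). Conversely, Cxcl9 (0.69, adjusted p = 0.0467) and Irf1 (0.0370) passed in IL33KO hosts without sorted IL33KO 1, and Irf1 passed without sorted IL33KO 3 (0.0446).

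Socs1 and Nos2 did not pass in hosts of either genotype. Socs1 had a log2 fold change of −0.26 in IL33KO hosts and 0.70 in WT hosts (adjusted p = 0.537 and 0.0944 in edgeR), and Nos2 had 0.88 and 1.22 (0.251 and 0.109). Without bulk WT 5, both passed in WT hosts, Socs1 at 1.28 (adjusted p = 0.000452) and Nos2 at 2.09 (0.00709).

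These directions depend on scale for the smaller values. With library size alone, the median of all genes was −0.43 in IL33KO hosts and −0.51 in WT hosts, against 0.02 and −0.0030 with TMM, and the calls were 3416 higher and 9123 lower in IL33KO hosts and 3647 and 9551 in WT hosts, against 5682 and 5747, and 6117 and 6230. Under that scaling Cxcl9, Cxcl10 and Irf1 no longer passed in WT hosts (0.25, 0.48 and 0.27, adjusted p = 0.444, 0.234 and 0.196), and Cxcl10 and Irf1 turned to −0.20 and −0.071 in IL33KO hosts. Cxcr3, Cxcl11 and Ido1 kept direction and call in hosts of both genotypes under every alternative run.

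**Figure D3:**
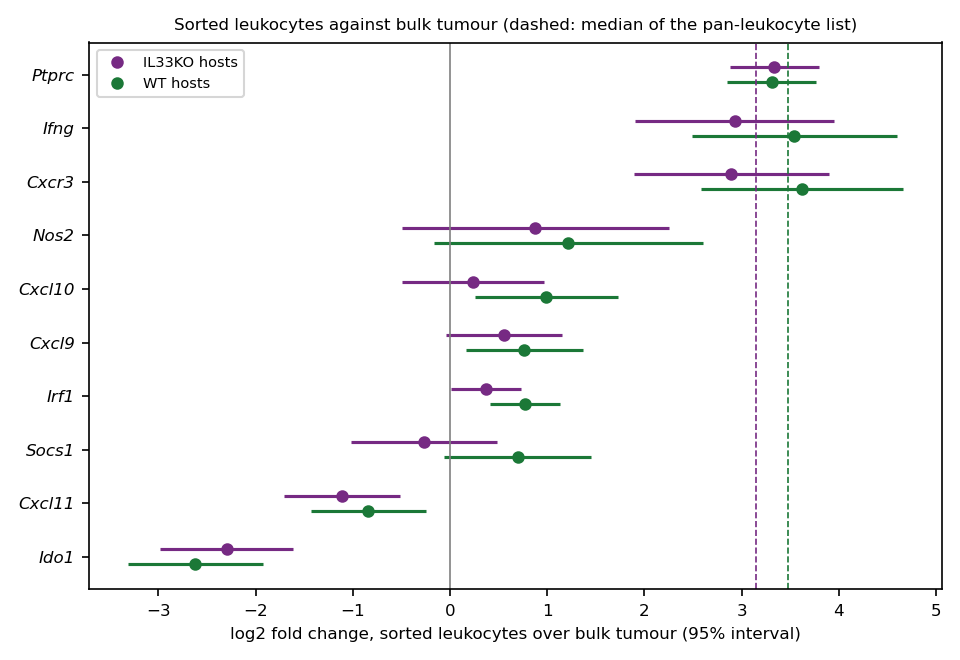
Log2 fold change of sorted leukocytes over bulk tumour with its 95% interval from edgeR, in IL33KO and WT hosts, for the 8 members beside Ptprc (CD45, the bead target) and Ifng, with the median of 10 pan-leukocyte genes dashed (3.14 and 3.48). Cxcr3 and Ifng lie with the leukocyte genes, Cxcl9, Cxcl10 and Irf1 lie near 0 to 1, and Cxcl11 and Ido1 lie below 0.

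Ptprc, which encodes the CD45 on which the cells were selected, was higher in sorted leukocytes by 3.34 in IL33KO hosts and 3.31 in WT hosts on the log2 scale. Cxcr3 (2.90 and 3.62) was the member nearest to it, and Nos2 (0.88 and 1.22) came next.

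In bulk tumour, fewer cells of a type and less RNA per cell cannot be told apart. Genes of tumour epithelium were lower in sorted leukocytes in 8 of 8 cases in IL33KO hosts (median log2 −1.99) and in 7 of 8 in WT hosts (−2.07), and fibroblast genes in 8 of 8 (−2.51) and 7 of 8 (−1.62). Ido1 lay between these medians in IL33KO hosts, at −2.30, and below both in WT hosts, at −2.62. The part of these cells in the level of Ido1 or Cxcl11 was not tested.

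Lists of the wider pathway differed in direction, and their counts are to be read against the 31.3% of all genes that were higher and the 31.7% that were lower in IL33KO hosts, and the 33.7% and 34.3% in WT hosts. Of 6 genes of interferon gamma and its receptor signalling, 4 were higher and 0 lower in sorted leukocytes in hosts of each genotype, led by Ifng itself (24.0 ± 12.6 CPM in sorted IL33KO and 3.20 ± 1.39 CPM in bulk IL33KO, log2 2.93, and 31.0 ± 10.7 CPM in sorted WT and 2.67 ± 2.08 CPM in bulk WT, log2 3.54). Of 8 feedback genes 5 were higher and 1 lower in IL33KO hosts and 6 and 1 in WT hosts, with Socs3 at 2.96 and 3.39 and Cish, a further SOCS family member, at 1.79 and 2.21. Of 13 genes of interferon gamma induction 10 were higher and 2 lower in both, including Il12b, a subunit of IL-12, at 2.41 and 3.04, and Stat4, which carries the IL-12 signal, at 2.61 and 2.84.

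The other interferon gamma targets were mixed. Of 24, 9 were higher and 6 lower in IL33KO hosts, and 11 higher and 5 lower in WT hosts. In IL33KO hosts these counts lay near the background. Cd274, the gene of the checkpoint ligand PD-L1, was higher (log2 2.74 in IL33KO hosts and 3.13 in WT hosts), as was the Fc receptor gene Fcgr1 (3.00 and 3.45), while the tryptophanyl-tRNA synthetase gene Wars was lower (−1.12 and −1.31). Of the 8 interferon regulatory factors other than Irf1, 7 were higher and 1 lower in both, with Irf8, a factor of myeloid and dendritic cells, at 2.54 and 2.88 and Irf4, a factor of lymphocytes and some dendritic cells, at 4.08 and 4.94.

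Enzymes around Ido1 and Nos2 did not all follow them. Kmo and Kynu, which act after Ido1 in tryptophan breakdown, were higher in sorted leukocytes (log2 3.16 and 2.48 in IL33KO hosts, 3.58 and 2.85 in WT hosts), against the lower Ido1. The Ido1 relative Ido2 was lower in IL33KO hosts (−3.13, at 0.427 CPM in sorted leukocytes and 3.82 CPM in bulk tumour). The interaction of Ido2 did not pass (−0.87, adjusted p = 0.573 in edgeR), so the hosts were not told apart. In all, 4 of the 8 tryptophan genes were higher and 3 lower in IL33KO hosts, and 3 higher and 2 lower in WT hosts. Of 8 genes of arginine and nitric oxide metabolism 5 were higher and 3 lower in both, with the arginase gene Arg2 at 3.90 and 4.25, Ass1, which rebuilds arginine from citrulline, at 1.33 and 1.75, and the neuronal nitric oxide synthase gene Nos1 at −2.17 and −2.33. Of the 3 genes that process or scavenge the ligands, Dpp4, a protease that trims them, was higher (2.31 and 2.82) and Ackr3, a scavenging receptor for CXCL11, was lower (−1.65 and −1.33).

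Across the 10 sorted libraries, 4 of the 8 members passed the test of a relation to Ifng. Their lowest r, 0.722 for Cxcl11, was reached by 411 of the other 16730 genes tested (2.46%). Ifng had 11.8, 20.03, 16.0, 43.7 and 28.3 CPM in sorted IL33KO, against 40.6, 22.1, 30.1, 19.2 and 43.1 CPM in sorted WT, and did not pass by genotype (log2 −0.36, adjusted p = 0.711 in edgeR). Irf1 followed it most closely, with Pearson's r = 0.957 and Spearman's rho = 0.964 on log2 CPM (n = 10, permutation test, adjusted over the 8 members, p = 0.00024 and 0.0004). After both measures were centred on the mean of each genotype, r was 0.963, and without the 2 libraries farthest from the median of Ifng, sorted IL33KO 1 and 4, it was 0.941.

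The chemokines followed less tightly. Cxcl10 had r = 0.820 (permutation test, adjusted p = 0.0152) and rho = 0.758 (0.0402), and r was 0.750 without those 2 libraries. Cxcl9 had r = 0.746 (permutation test, adjusted p = 0.0356) and rho = 0.648 (0.0749), and Cxcl11 had r = 0.722 (0.0412) and rho = 0.733 (0.0402). Without the same 2 libraries r was 0.575 for Cxcl9 and 0.576 for Cxcl11, so these relations rest in part on them. The other members did not pass by Pearson's r: Nos2 had 0.671 (permutation test, adjusted p = 0.0545), Socs1 0.597 (0.0935), Cxcr3 0.537 (0.118) and Ido1 0.098 (0.794), and rho passed for Nos2 (0.733, adjusted p = 0.0402).

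The number of members that passed depended on single libraries. Without sorted IL33KO 1 only 1 relation passed by Pearson's r, and 2 did without sorted IL33KO 4, sorted WT 2 or sorted WT 5. Sorted IL33KO 3, low in Ifng, had the highest sums of acinar and neutrophil genes (40374 and 17045 CPM). Sums of T cell genes were highest in the 3 libraries with the most Ifng, at 1513 CPM in sorted IL33KO 4 and at 1446 and 1347 CPM in sorted WT 1 and 5, and lowest in sorted IL33KO 3 (577 CPM) and sorted WT 4 (702 CPM). Sums of natural killer cell genes were 486 CPM in sorted IL33KO 4 and 516 and 624 CPM in sorted WT 1 and 5, against 261 CPM in sorted IL33KO 3 and 181 CPM in sorted WT 4, with sorted WT 3 high as well (612 CPM). Sorted IL33KO 1, the lowest in Ifng, had 1005 CPM of T cell genes and 190.1 CPM of natural killer cell genes. The part of composition in these relations was not tested.

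**Figure D4:**
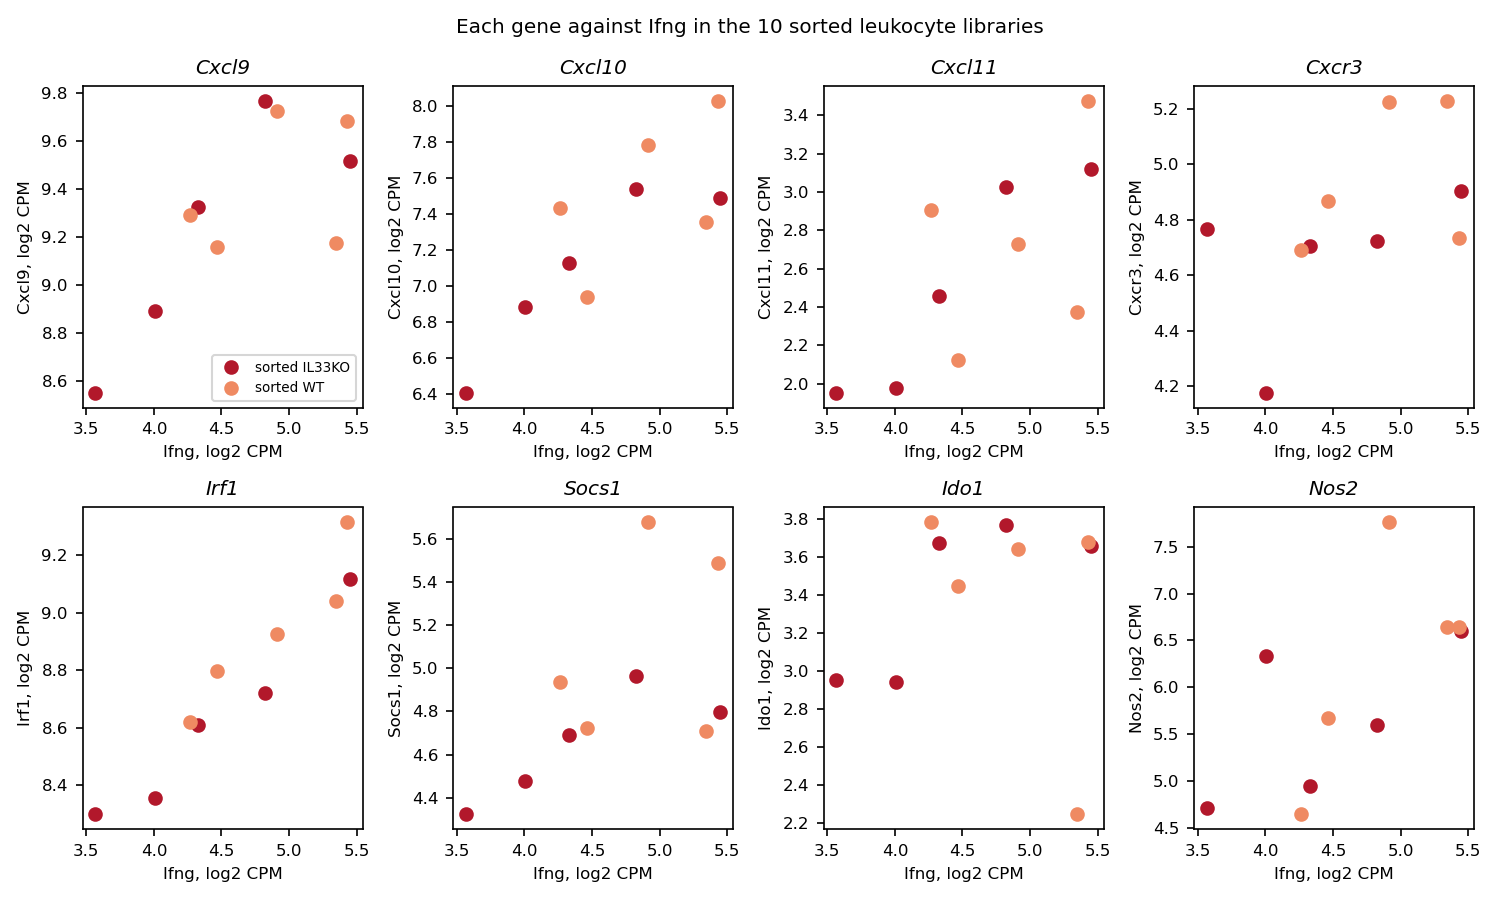
Log2 CPM of each member (vertical) against log2 CPM of Ifng (horizontal) in the 10 sorted libraries, IL33KO and WT in different colours. Irf1 follows Ifng closely in both genotypes (r = 0.957), Cxcl10 less so (0.820), and Ido1 does not pass (0.098).

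In bulk tumour Ifng had a low and a high set of values, a split seen in the values and not tested. No relation of the members to Ifng was tested there. Ifng had 3.07, 2.90, 1.64, 2.93 and 5.47 CPM in bulk IL33KO, against 1.29, 1.49, 3.88, 0.942 and 5.75 CPM in bulk WT. Bulk IL33KO 3 and bulk WT 1, 2 and 4 were the low ones. The same 4 libraries had the lowest sums of T cell genes, at 72.6 CPM in bulk IL33KO 3, and at 91.9, 90.9 and 89.5 CPM in bulk WT 1, 2 and 4, against 134 to 250 CPM in the other bulk IL33KO and 198 and 246 CPM in the other bulk WT libraries. They were also the 4 lowest for Cxcr3, at 0.835 to 1.36 CPM, against 1.88 to 6.87 CPM. Bulk WT 5, with Ifng at 5.75 CPM, had the highest natural killer cell and macrophage sums (185 and 3376 CPM) and the highest Cxcl10, Irf1, Socs1, Ido1 and Nos2 among bulk libraries. The part of leukocyte content in these levels was not tested. With a covariate for the pan-leukocyte genes, bulk genotype values were −0.18 for Cxcl9, −0.11 for Cxcl11, −0.044 for Cxcr3 and −0.050 for Irf1. Each had the opposite sign to the fit without it (0.04, 0.05, 0.42 and 0.09), and none passed the threshold. Cxcl10, Socs1, Ido1 and Nos2 kept their sign. Over all alternatives the lowest bulk genotype value was 0.14 for Cxcl10 and 0.24 for Socs1.

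**Figure D5:**
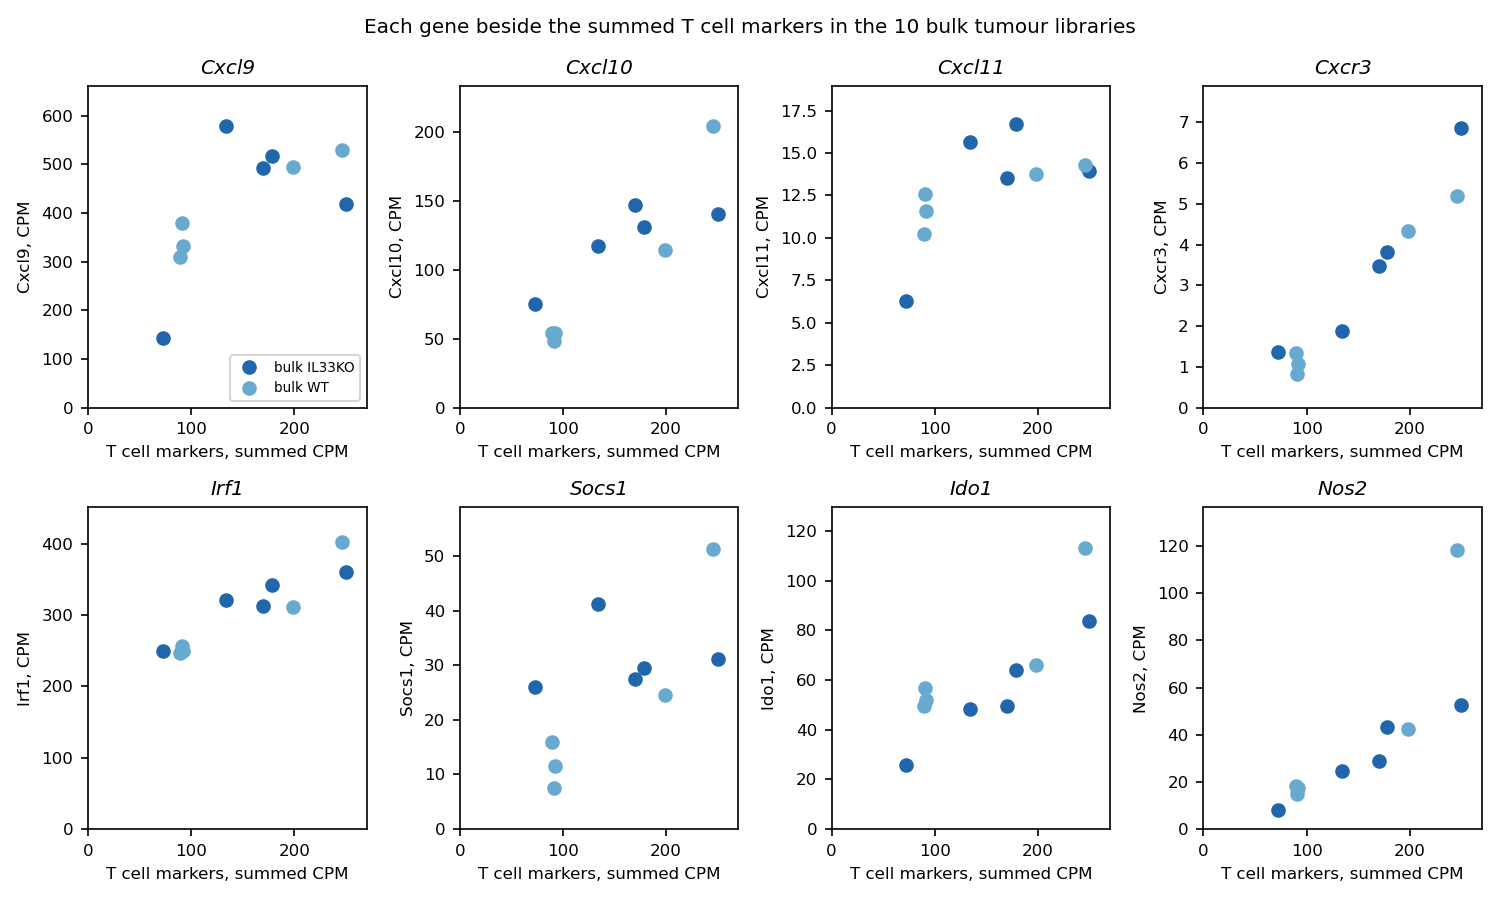
CPM of each member (vertical) beside the summed CPM of 11 T cell genes (horizontal) in the 10 bulk libraries, IL33KO and WT in different colours. The 4 libraries at 72.6 to 91.9 CPM of T cell genes have the lowest Cxcr3 values (0.835 to 1.36 CPM), and bulk WT 5 at 246 CPM is the highest for Ido1 (113 CPM) and Nos2 (118 CPM).

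The order of levels, in CPM per kilobase of exon, set Cxcl9, Irf1 and Cxcl10 above the other members in all 4 groups. Cxcl9 averaged 206 ± 65.9 in sorted IL33KO and 229 ± 44.9 in sorted WT, Irf1 101 ± 24.2 and 125 ± 23.2, and Cxcl10 62.8 ± 18.8 and 83.4 ± 23.8 (SD, n = 5 each). In sorted leukocytes Cxcr3, Nos2 and Socs1 followed with overlapping ranges (8.74 to 14.7 on average in IL33KO and 12.3 to 22.3 in WT), then Ido1 at 5.95 in IL33KO and 5.98 in WT and Cxcl11 at 1.58 and 1.82. In bulk tumour Ido1 moved up to the place after Cxcl10, at 29.8 ± 11.8 in IL33KO and 37.0 ± 14.5 in WT, and Cxcr3 came last at 2.01 ± 1.25 and 1.47 ± 1.18. Neighbours in this order that did not overlap were Cxcl10 and Cxcr3, and Ido1 and Cxcl11, in sorted IL33KO, Cxcl9 and Irf1, Cxcl10 and Nos2, and Socs1 and Ido1 in sorted WT, and Cxcl9 and Irf1, and Ido1 and Nos2 in bulk WT. In bulk IL33KO each neighbour overlapped the next.

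Genes whose log2 CPM most resembled each member were ranked by Pearson's r over all 20 libraries after centring on the 4 group means, among 11388 genes whose mean reached 5 CPM. For Cxcl9 they were Gbp6, Gbp5 and Iigp1, interferon-induced GTPases, with r from 0.929 to 0.938. Cxcl11 was most like Cxcl9 (0.862), Gbp6 (0.857) and the transcription factor gene Batf2 (0.851), and Cxcl10 like Slamf8 (0.945), Il18bp (0.920), which encodes a decoy for IL-18, and P2ry14 (0.918). Irf1 was most like Rgs16 (0.939), Ifng (0.925) and the lymphocyte receptor gene Cd160 (0.923).

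The remaining members had other neighbours. Cxcr3 was most like Gimap1os (0.963), Rasal3 (0.961) and the IL-21 receptor gene Il21r (0.952). Socs1 was most like Dnaaf3 (0.947), Scarf1 (0.933) and the complement gene C1qc (0.926), and Nos2 like the integrin gene Itgal (0.946), Spn (0.935), which encodes CD43, and the platelet-activating factor receptor gene Ptafr (0.935). Ido1 had the lowest leading value apart from Cxcl11, at 0.877 for both Ubd, an interferon-induced ubiquitin-like gene, and Tmem192, followed by Casp12 (0.848). Some values were lower within sorted leukocytes than within bulk tumour, such as Socs1 with C1qc (0.696 and 0.971) and Cxcr3 with Rasal3 (0.703 and 0.992). Others were not, such as Irf1 with Rgs16 (0.953 and 0.922). The libraries share their cell makeup across genes, and these values are a description with no test.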

How the data were processed

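RNA-seq was measured in 20 libraries, 5 per group, of polyadenylated RNA prepared with a stranded kit, per the labels' protocols. The authors deposited raw gene counts, made with HTSeq on mm10 per the submitters' processing notes; the aligner and strand setting are not stated in the labels or notes used. The 5 summary lines (26.1 to 40.5% of reads) were left out, and a second table, of scaled values, was not used. Replicates differed beyond sampling noise in every pair (chi-square per gene at least 19.6). The labels name 5 hosts per genotype but tie no library to a mouse, so p-values measure the spread between libraries, which may be partly technical, and sorted and bulk libraries may share tumours.

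Tests used edgeR 4.0.16 in R 4.3.3 (filterByExpr, TMM, robust quasi-likelihood test): 10 libraries per compartment for genotype, all 20 for sorted against bulk and the interaction. P-values are Benjamini-Hochberg adjusted over all genes tested, threshold 0.05, 2-sided. CPM use TMM factors over all 20 libraries (0.756 to 1.25), and log2 CPM a prior count of 2. DESeq2 1.42.0, limma 3.58.1, other scalings, no filter, a replicate block and single libraries left out were alternatives. Scripts were tested on simulated data. Symbols came from the table, and coordinates and exon lengths from GENCODE M21, which matched 46488 of 46983 genes. The members and the 23 lists were chosen with earlier results of these data known. Genes named beside the members were the 4 with the smallest p per list, or the 3 most alike per member. For 1 gene of the pathway lists no value of its own is reported here.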

Additional observations from a re-analysis of the deposited data

Results flagged for a closer look

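Bulk WT 5 stood apart from the other bulk WT libraries in 2 members. Its Ido1 level was 113 CPM, against 49.4 to 66.2 CPM in the other 4, and its Nos2 level was 118 CPM, against 14.8 to 42.6 CPM. In both, the gap to the nearest library exceeded Dixon's 95% critical value for 5 samples. Of 56 tests, over 14 genes in 4 groups, these 2 exceeded it, where chance flags about 1 in 20. The same library had 8693 CPM of acinar genes and 246 CPM of T cell genes, and the part of these in its Ido1 and Nos2 levels was not tested. Without it the bulk Nos2 log2 fold change was 0.40, against −0.47 with it, and that of Ido1 was −0.069, against −0.34.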

How the results depend on the processing

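By genotype, 0 members passed in sorted leukocytes under all alternatives run, and in bulk tumour 4 passed with limma voom and 0 otherwise. Genes called in sorted leukocytes were 2 in the main fit, 476 with DESeq2, 400 with voom, 12 with the pan-leukocyte covariate and 1 to 3 with single libraries left out; in bulk tumour they were 0, with 52 for DESeq2, 3371 for voom and 0 to 19 (19 without bulk WT 5). For the interaction they were 0, with 2 for DESeq2, 3406 for voom (3 members) and 1 for RLE factors. They were 3 without sorted IL33KO 3, sorted WT 3 and bulk WT 5 together. With single libraries left out they were 0 to 27 (27 without bulk WT 5). The cause was not tested. Signs turned for values near 0: in sorted leukocytes Ido1 (−0.0012 with DESeq2, −0.049 with the covariate, −0.0057 with all libraries in 1 fit, −0.18 to 0.11 leaving 1 out), Cxcl11 (0.0075 with voom, −0.36 to 0.047) and Cxcl9 (0.011 without WT 3 and IL33KO 3); in bulk tumour Cxcl9 (−0.18 with the covariate, −0.084 to 0.25), Cxcl11 (−0.11, −0.039 to 0.22), Cxcr3 (−0.044), Irf1 (−0.050) and Nos2 (0.63 with voom, −0.74 to 0.40); and the interaction of Nos2 (−1.21 to 0.17, positive without sorted WT 3). With library size alone Cxcl10 (−0.20) and Irf1 (−0.071) turned in IL33KO hosts and 3 members in place of 6 passed in WT hosts; leaving out 1 library gave 3 to 5 members in IL33KO hosts and 4 to 8 in WT hosts. Relations to Ifng numbered 1 to 6, against 4.

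Libraries with equal replicate numbers deviated together unevenly (r from −0.26 to 0.59). Of sorted IL33KO and WT libraries, 3 of 5 were best with their own number, and 1 of 5 in each other pairing. These values do not settle whether equal numbers are pairs, and the numbers are not taken as pairs. With the replicate block, 1 gene passed in sorted leukocytes, bulk Cxcl9 was −0.036, and 4 members in IL33KO hosts (Irf1 added, adjusted p = 0.04998) and 8 in WT hosts (Socs1, 0.0249, and Nos2, 0.0498, added) passed. Sorted IL33KO 3, sorted WT 3 and bulk WT 5, left out together for their acinar genes, were chosen after seeing the data. So were the Ifng alternatives. Sorted WT 3 had 4171 CPM of acinar genes, less than sorted IL33KO 2 (6772 CPM), which was kept. Depth limits Cxcr3 most, at 59 to 499 counts in bulk tumour.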
